A study of Mus musculus with 37 samples.

Results

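Splenocytes that had been cultured on washed macrophages were compared with naive splenocytes, and 14 of the 37 libraries entered the comparison. They were chosen by their sample titles and treatment labels, which mark 12 libraries as washed co-culture and 2 as naive, and no measured value entered the choice. All splenocytes came from wild-type FVB mice. In the washed co-culture, RAW264.7 cells, an immortalised mouse macrophage-like line, were kept for 72 h at 21% oxygen (normoxia) or 1% oxygen (hypoxia). SPP1 was added to them at 1 µg/mL or left out. After a media wash, the splenocytes were placed on these cells for 48 h, and brefeldin A, a blocker of protein secretion, was added at the end. The 4 resulting conditions had 3 libraries each. The naive splenocytes carried no RAW264.7 exposure in their label. Whether they had also been kept in culture for 48 h or given brefeldin A was not stated. The media wash, the co-culture, the brefeldin A and any time in culture could therefore not be told apart in the comparison with naive cells. The remaining libraries used here came from splenocytes on unwashed RAW264.7 cells (12 libraries) or in the medium of RAW264.7 cells (11 libraries).

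Macrophages act on lymphocytes both through molecules on their surface and through what they secrete, and a wash before co-culture removes the medium conditioned so far while leaving the cells in place. Low oxygen changes what macrophages express and secrete. SPP1, or osteopontin, is a secreted glycoprotein that binds integrins and CD44 and is made by macrophages among other cells. A spleen suspension holds mainly B and T lymphocytes with smaller numbers of myeloid and other cells, so its RNA is a mixture.

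The genome used for alignment was human, although the reads were of mouse, and all 60708 row IDs were human Ensembl gene IDs. Each ID below therefore stands for those mouse reads that matched a human gene, which can include reads from a paralog or pseudogene. The files do not pair IDs with names, and 0 of the IDs occurred in the mouse gene table used here. IDs are accordingly given without a gene name or function, at most 2 per direction and comparison unless 5 or fewer were called. Markers of splenocyte types or of RAW264.7 cells could not be examined, and it is not known how much RAW264.7 RNA the collected splenocytes carried. In such bulk libraries, fewer cells of a type and less RNA per cell cannot be told apart either.

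The washed libraries held 691539 to 1337314 counts and the naive libraries 967604 and 631574. A level of 3 counts corresponded to 2.53 to 4.97 CPM (reads of an ID relative to the library total, scaled by the TMM method) in the 14 libraries. The washed libraries had counts for fewer IDs, 7102 to 9301, than naive replicates 1 and 2, with 9988 and 10807. At an equal total of 631574 counts, the smallest of all libraries, 7611 ± 332 IDs were expected in washed (SD, n = 12; range 6801 to 8128) and 8842 and 10807 in the naive libraries. The exact permutation test over the 14 libraries, counting differences in either direction, gave p = 0.011, the smallest value that 91 regroupings allow (0.011 after Benjamini-Hochberg adjustment over 2 measures). The same measure was 7919 ± 313 in unwashed (SD, n = 12) and 8302 ± 311 in medium (SD, n = 11). The 10 most abundant IDs took 20.9% ± 1.99 of the counts in washed (SD, n = 12; range 18.9% to 24.4%) and 16% and 12.1% in naive, again with an exact permutation p of 0.011. The counts of washed libraries were thus spread over fewer IDs than those of both naive libraries, and the groups did not overlap in either measure. These 2 measures were added after the data had been seen.

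On the first principal component of log2 CPM, which held 29.6% of the variance, the naive libraries lay at -44.9 and -67.6 and the washed libraries from -8.84 to 54.9. The second component held 25% of the variance and did not separate the washed libraries from the naive ones. On it, 3 washed libraries lay near the naive libraries (29.5 and 43.5). They were replicates 1 and 2 of normoxia with SPP1 (41.7 and 27.0) and replicate 1 of hypoxia with SPP1 (30.2). The other 9 washed libraries lay between -29.1 and 2.76. On the first component, however, those 3 libraries lay farthest from naive, at 42.9, 19.1 and 54.9 in the same order. There the other 9 lay between -8.84 and 6.03. The lowest washed totals also belonged to these 3 libraries, with 691539 and 962194 counts after normoxia and 761571 after hypoxia. All 3 came from co-culture with SPP1-treated RAW264.7 cells, but the other 3 washed SPP1 libraries lay with the libraries without SPP1. What set the 3 apart was not tested, and results that rest on them are given with and without them. No pair of replicates agreed within sampling noise (chi-square per degree of freedom 3.41 to 42.9 in washed and 13.9 in naive), so no library was counted as a duplicate.

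**Figure D1:**
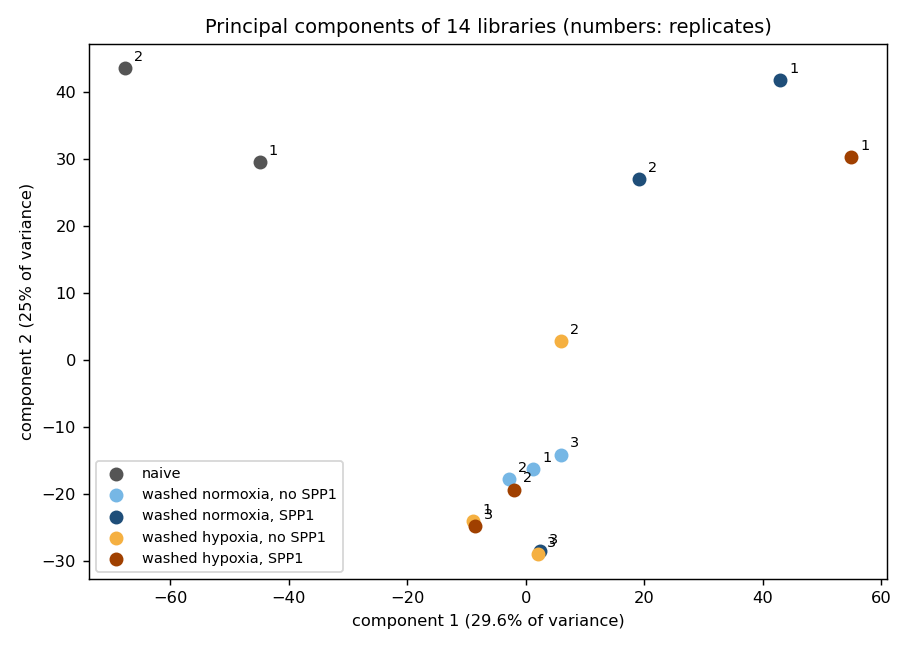
Principal components 1 and 2 of log2 CPM for the 14 libraries, one point per library, coloured by group and numbered by replicate. The naive libraries sit at -44.9 and -67.6 on the first component, below all washed libraries. On the second component 3 washed SPP1 libraries (27.0 to 41.7) lie near the naive ones (29.5 and 43.5), but on the first they lie farthest from them (19.1 to 54.9).

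Between washed co-culture and naive splenocytes, 1793 of 5193 IDs (34.5%) differed at an adjusted p under 0.05 in the quasi-likelihood test of edgeR, and such IDs are referred to as called. Of these, 907 were higher in washed (17.5%) and 886 were lower (17.1%). Among the higher IDs 756 changed at least 2-fold and 246 at least 4-fold, and among the lower IDs 733 and 278 did so. The median log2 fold change was 1.58 among the higher and -1.58 among the lower IDs, beside 0.04 over all 5193. For 1261 of the called IDs, 630 higher and 631 lower, all 12 washed libraries lay on the same side of both naive libraries. Groups that did not overlap occurred at 1396 of all tested IDs (26.9%).

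The direction of the calls varied with the level of the IDs. When the IDs were split into 3 equal bins by mean level, the highest bin (log2 CPM of 5.53 or more) had the most calls, where, 907 of 1731 were called (52.4%), 561 higher and 346 lower in washed. In the middle bin 547 were called (31.6%), 275 higher and 272 lower. In the lowest bin (log2 CPM up to 3.31) 339 were called (19.6%), 71 higher and 268 lower. Among the called IDs, the absolute log2 fold change had a median of 1.25 in the highest bin and 2.40 in the lowest, where the median standard error over all tested IDs was also larger (0.751 against 0.294). The mean level was taken over the 14 libraries, of which 12 were washed. An ID lower in washed thus tends toward a lower bin, and an ID higher in washed toward a higher one. The directions in the bins therefore follow in part from the binning. The split between bins was a description and was not tested.

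**Figure D2:**
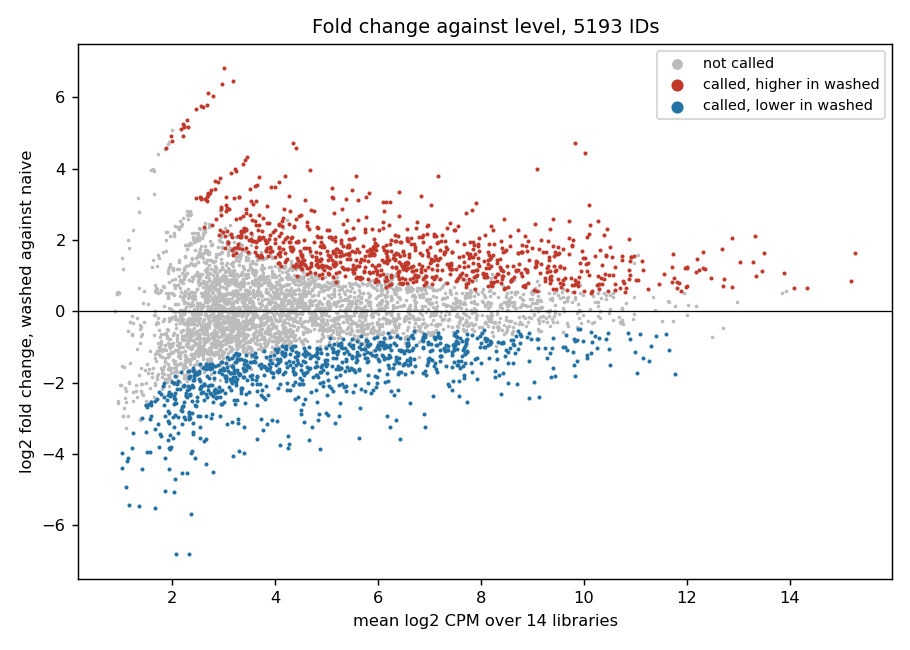
Log2 fold change of washed against naive (vertical axis) plotted against the mean log2 CPM over the 14 libraries (horizontal axis), one point per tested ID, red and blue for IDs called higher and lower. Blue points prevail at the low end (71 higher and 268 lower in the lowest bin) and red points at the high end (561 and 346). Most libraries in the mean are washed, so this pattern follows in part from the choice of the horizontal axis.

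The IDs at the limit of detection were counted separately. Both naive libraries held at most 3 counts of 453 tested IDs. Of these, 36 had more than 3 counts in all 12 washed libraries, and 33 of the 36 were called higher. In the other direction, 82 IDs did not exceed 3 counts in any washed library. Of these, 10 had more than 3 counts in both naive libraries, and all 10 were called lower. Since the condition on counts requires the groups to differ, these calls follow in part from the way the IDs were picked.

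Of the IDs at a mean log2 CPM of at least 5 whose groups did not overlap, ENSG00000120738 and ENSG00000179388 had the largest increases. ENSG00000120738 ran from 122 to 3649 CPM in washed, with a median of 2409, and had 76.1 and 71.6 CPM in the naive libraries. The spread within washed was wide and fell into 2 ranges. The 3 libraries that lay near naive on the second component and farthest from it on the first are referred to as set apart. They had 122 CPM (hypoxia SPP1 replicate 1), 161 CPM (normoxia SPP1 replicate 1) and 434 CPM (normoxia SPP1 replicate 2). The other 9 had 1717 to 3649 CPM. As the choice of these IDs required, every washed library lay above both naive ones. This amounted to a difference of 4.73 on the log2 scale (SE 0.947, adjusted p = 0.000196), which over 24 alternatives ran from 4.17 to 5.18 with adjusted p-values up to 0.0165.

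The increase of ENSG00000120738 was called in each condition on its own. The log2 fold change against naive was 5.18 (SE 1.01) with normoxia and 5.00 (SE 1.00) with hypoxia where no SPP1 had been added. With SPP1 it was 4.26 (SE 0.967) after normoxia and 4.46 (SE 0.976) after hypoxia. In the 6 SPP1 libraries its level was 1523 ± 1488 CPM, and in the 6 others 2533 ± 505 (SD). These arms overlapped, and the SPP1 effect was not called (log2 fold change -0.73, SE 0.493, adjusted p = 0.634).

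ENSG00000179388 ran from 734 to 2302 CPM in washed, with a median of 1848, against 50.8 and 105.5 CPM in naive. Its lowest values again occurred in the 3 libraries set apart (1144, 734 and 1027 CPM), while the other 9 had 1505 to 2302 CPM. In log2 units the increase was 4.44 (SE 0.458, adjusted p = 3.069e-09). Without naive replicate 1 it was 3.996 and without naive replicate 2 it was 5.07. By condition the log2 fold change ran from 4.08 (SE 0.472) for normoxia with SPP1 to 4.73 (SE 0.487) for hypoxia without SPP1, and it was called in all 4.

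ENSG00000204580 and ENSG00000141232 had the largest decreases under the same conditions. ENSG00000204580 ran from 38.2 to 88.7 CPM in washed (median 63.0), against 258 CPM in naive replicate 1 and 1235 CPM in naive replicate 2. The washed libraries were close together, and the naive libraries far apart. The estimated log2 fold change, -3.58 (SE 0.287, adjusted p = 7.068e-12), kept its sign, but its size depended on the naive library, with -2.03 without naive replicate 2 and -4.31 without naive replicate 1. The direction and the call held in both.

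ENSG00000141232 ran from 9.25 to 70.4 CPM in washed (median 44.5), against 403 and 517 CPM in naive. Here the naive libraries were close, and the washed libraries were spread. The 3 libraries set apart had 16.1, 13.3 and 9.25 CPM, washed hypoxia no SPP1 replicate 2 had 10.4 CPM, and the other 8 had 40.4 to 70.4 CPM. A log2 fold change of -3.55 was estimated (SE 0.355, adjusted p = 1.81e-09), and it ran from -3.92 to -3.26 over 24 alternatives. By condition it ran from -3.28 (SE 0.531) for normoxia without SPP1 to -3.90 (SE 0.55) for normoxia with SPP1.

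**Figure D3:**
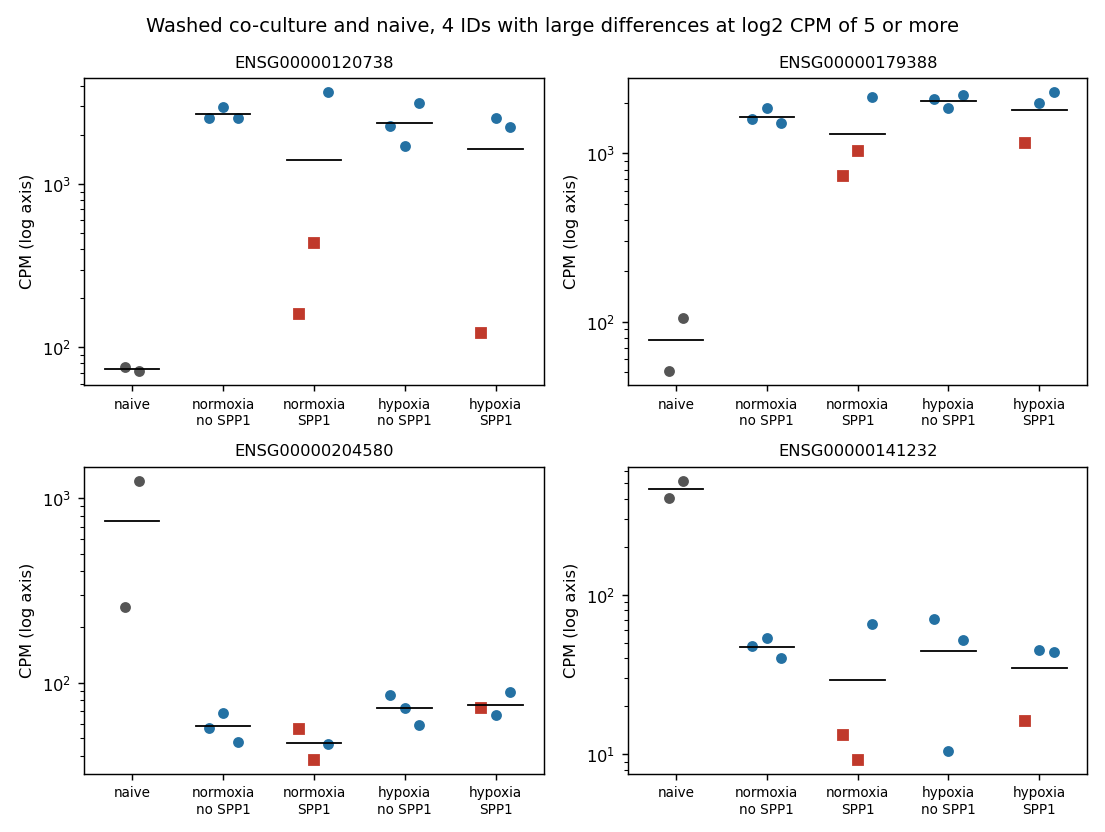
CPM on a log axis of 4 IDs, one panel per ID, one point per library and a line at each group's mean. These IDs had the largest changes per direction among called IDs at a mean log2 CPM of at least 5 whose groups did not overlap. Red squares mark the 3 libraries set apart, which hold the lowest ENSG00000120738 values among washed (122 to 434 CPM).

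The lowest p-value of the comparison belonged to ENSG00000168273, an ID of smaller change and tighter replicates. It had 844 and 806 CPM in the naive libraries and 56.7 to 128 CPM in washed (median 90.7), without overlap. The 3 libraries set apart (122, 91.1 and 56.7 CPM) were not distinct from the others here. Its estimated log2 fold change was -3.25 (SE 0.187, adjusted p = 1.367e-15).

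Since naive splenocytes were represented by 2 libraries, the comparison was refitted without each library in turn. Leaving out any washed library gave 1701 to 1840 calls, and 1592 of the 1793 calls were kept in all 12 of these fits. Without naive replicate 1 there were 1388 calls, and without naive replicate 2 there were 689 (327 higher, 362 lower). In both of these fits together, 521 of the 1793 calls were kept, 251 higher and 270 lower, and the same 521 were kept in all 14 fits. Of the 1793 IDs, 4 had the opposite sign without naive replicate 1 and 12 without naive replicate 2. The fits with a single naive library assume that it varies like the other groups. Without the 3 washed libraries set apart the count was 1950 (909 higher, 1041 lower), and 1669 of the 1793 calls were kept.

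**Figure D4:**
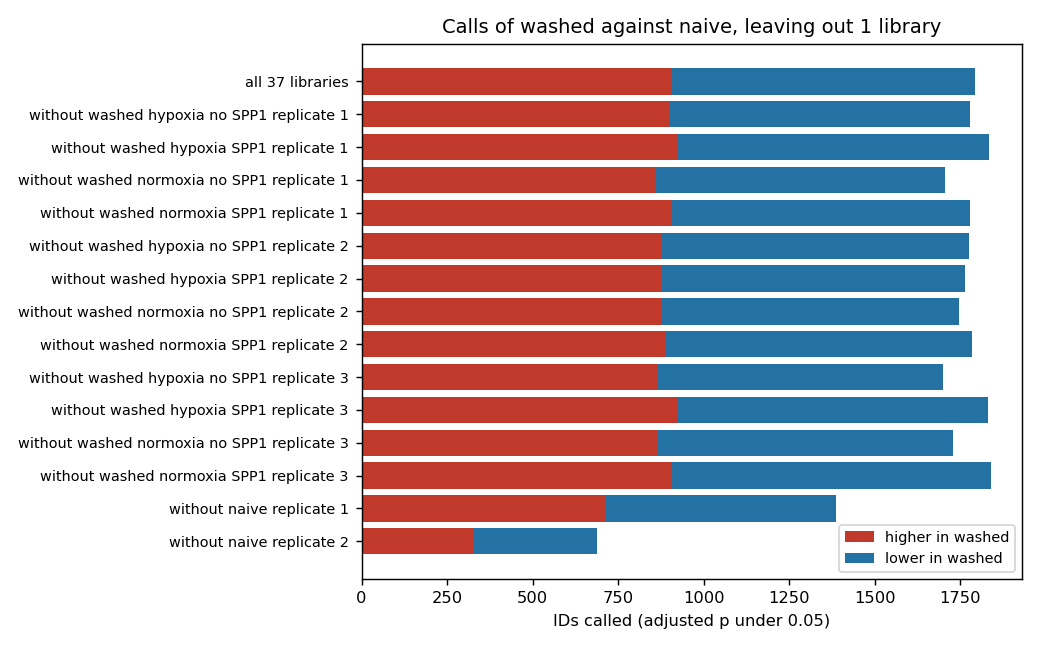
Number of IDs called between washed and naive (horizontal axis, from 0), with all 37 libraries and with each of the 14 libraries left out, split into IDs higher (red) and lower (blue) in washed. The bars stay between 1701 and 1840 when a washed library is left out and fall to 1388 and 689 when a naive one is.

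The 4 washed conditions were next set against the same 2 naive libraries, one at a time. The counts of calls were 1219 for hypoxia without SPP1 (23.5%; 685 higher, 534 lower) and 1343 for hypoxia with SPP1 (25.9%; 738 higher, 605 lower). They were 1246 for normoxia without SPP1 (24%; 688 higher, 558 lower) and 1452 for normoxia with SPP1 (28%; 803 higher, 649 lower). The conditions share both naive libraries, so their similarity is not independent evidence.

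Of the 1793 IDs called on average, 1791 had the same sign in all 4 conditions, 773 were called in all 4 (458 higher, 315 lower) and 88 in none. Over the 907 higher IDs the median log2 fold change was 1.53 for hypoxia without SPP1, 1.60 for hypoxia with SPP1, 1.54 for normoxia without SPP1 and 1.56 for normoxia with SPP1. Over the 886 lower IDs it was -1.46, -1.57, -1.53 and -1.60 in the same order. In single washed libraries, 91.2% to 99.3% of the higher IDs lay above both naive libraries and 88.1% to 97.6% of the lower IDs below both. For the higher IDs the 3 lowest shares (91.2%, 91.5% and 91.8%) were those of the libraries set apart, and for the lower IDs theirs were 92.1%, 90.2% and 88.1%. Since these IDs were selected by the same contrast, the shares describe how evenly the libraries carried it and test nothing.

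Whether the oxygen level of the RAW264.7 cells altered the washed splenocytes was tested by a contrast between the washed conditions. The spread was estimated over all 37 libraries. The quasi-likelihood test called 2 of 5193 IDs (0.0385%), 1 higher and 1 lower after hypoxia, and 426 had an unadjusted p under 0.05. The 6 hypoxia and 6 normoxia libraries did not overlap at 20 IDs (0.385%), and neither called ID was among them. ENSG00000275052 had 215 ± 52.0 CPM after hypoxia and 419 ± 88.4 CPM after normoxia (SD, n = 6 each). The hypoxia libraries ran from 181 to 319 CPM and the normoxia libraries from 298 to 553 CPM, so that they overlapped through washed hypoxia no SPP1 replicate 2 at 319 CPM and washed normoxia SPP1 replicate 3 at 298 CPM. On the log2 scale the change was -0.97 (SE 0.191, adjusted p = 0.0465). The naive libraries had 199 and 103 CPM, and washed exceeded naive on average by 0.98 on the log2 scale (SE 0.273, adjusted p = 0.00536). In unwashed co-culture, ENSG00000275052 averaged 158 and 171 CPM after hypoxia (without and with SPP1) and 399 and 345 CPM after normoxia. The unwashed hypoxia libraries (131 to 190 CPM) did not overlap the unwashed normoxia libraries (319.5 to 445 CPM). The oxygen difference in unwashed was not tested.

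ENSG00000172500 was a low ID. Its washed hypoxia libraries held 8, 2 and 5 counts without SPP1 and 0, 10 and 15 with SPP1, whereas no washed normoxia library held more than 2. The mean after hypoxia was 6.20 ± 4.66 CPM (SD, n = 6), at least 1.84-fold above the level of 3 counts per library (3.36 CPM) that the normoxia libraries did not reach (adjusted p = 0.0465). Naive splenocytes had 17.6 and 18.2 CPM, more than any washed library (log2 fold change of washed against naive -3.03, SE 0.528, adjusted p = 3.194e-05). In unwashed co-culture, ENSG00000172500 averaged 9.31 and 10.65 CPM after hypoxia (without and with SPP1) and 3.52 and 9.54 CPM after normoxia. Each ID called for hypoxia lost its call in 9 of the 12 fits that left out a library. Of all 18 alternatives, ENSG00000275052 lost its call in 13 and ENSG00000172500 in 14. The adjusted p ran from 0.00215 to 1.00 for the former and from 0.00329 to 0.936 for the latter.

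For SPP1 the same test called 1 ID (0.0193%), and 527 had an unadjusted p under 0.05. This call was likewise lost in a fit of only the washed libraries. At 12 IDs (0.231%) the arms did not overlap, and the called ID was not among them. In the 6 SPP1 libraries ENSG00000210082 averaged 2801 ± 3255 CPM, and in the 6 others 470 ± 106 (SD), which gave a log2 difference of 2.57 (SE 0.482, adjusted p = 0.0271). With SPP1 the libraries ran from 393 to 7456 CPM, and without SPP1 from 370 to 671 CPM. The highest SPP1 libraries were the 3 set apart (6447, 7456 and 1484 CPM), and the other 3 had 393 to 524 CPM, within the range without SPP1. A value of 1678 CPM also occurred in a library without SPP1, unwashed hypoxia no SPP1 replicate 2, in which ENSG00000120738 was at 125 CPM against 1091 to 2481 CPM in the other 11 unwashed libraries. Without the 3 libraries set apart, the log2 fold change was 0.05 (adjusted p = 1.00).

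The wash itself was examined by comparing splenocytes on washed and unwashed RAW264.7 cells. Of 5193 IDs 376 were called (7.24%), 216 higher (4.16%) and 160 lower (3.08%) in washed, and for none did the 12 washed and 12 unwashed libraries separate without overlap. Without the 3 libraries set apart 56 were called (27 higher, 29 lower), and 50 of the 376 were kept. The 4 IDs below, 2 per direction, chosen by the lowest p at a mean log2 CPM of at least 5 after their values were seen, were called in all 30 alternatives.

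ENSG00000163125 ran from 41.5 to 232 CPM in washed (median 94.9) and from 17.2 to 55.0 CPM in unwashed (median 32.8), and naive had 40.0 and 52.1 CPM. The log2 fold change against unwashed was 1.65 (SE 0.212, adjusted p = 1.36e-05), and against naive it was 1.19 (SE 0.425, adjusted p = 0.0280). Only the lowest washed library reached into the unwashed range.

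ENSG00000126814 had 110 ± 28.1 CPM in washed, 50.4 ± 14.6 in unwashed (SD, n = 12 each), 347 ± 130 in medium (SD, n = 11) and 233 and 147 in naive. Washed was above unwashed (log2 fold change 1.13, SE 0.172, adjusted p = 0.000300) and below naive (log2 fold change -0.82, SE 0.289, adjusted p = 0.0256). Its washed mean thus lay between those of the unwashed and the naive libraries. The washed range (70.8 to 178 CPM) overlapped both the unwashed range (37.7 to 86.1 CPM) and that of naive.

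ENSG00000164442 had 72.6 ± 32.5 CPM in washed and 233 ± 167 in unwashed (SD, n = 12 each), 852 ± 250 in medium (SD, n = 11) and 399 and 266 in naive. Its log2 fold change was -1.53 against unwashed (SE 0.249, adjusted p = 0.000695) and -2.21 against naive (SE 0.388, adjusted p = 3.616e-05). ENSG00000168273, the ID of the lowest p against naive, had 89.0 ± 23.6 CPM in washed and 155 ± 61.2 in unwashed (SD, n = 12 each), which differed by -0.77 on the log2 scale (SE 0.127, adjusted p = 0.000695). In unwashed, ENSG00000164442 averaged 283 and 388 CPM after hypoxia (without and with SPP1) and 130 and 130 CPM after normoxia. In washed these means were 83 and 62, and 91 and 54 CPM. ENSG00000168273 averaged 184 and 215 against 112 and 107 CPM in unwashed, and 77 and 121 against 88 and 70 in washed. The mean differences between washed and unwashed were thus larger after hypoxia, which was not tested. For both IDs the washed libraries had the lowest mean of all modes. In contrast, the 4 IDs named above for the size of their change from naive were not called between washed and unwashed. Their log2 fold changes were 0.24 for ENSG00000120738 (SE 0.347, adjusted p = 0.734) and 0.21 for ENSG00000179388 (SE 0.171, adjusted p = 0.506). For ENSG00000204580 the value was -0.25 (SE 0.199, adjusted p = 0.478) and for ENSG00000141232 it was -0.45 (SE 0.249, adjusted p = 0.273). These p-values do not show that the modes were alike.

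Washed co-culture was also compared with exposure to the medium of RAW264.7 cells. Splenocytes on washed cells were exposed both to the cells and to what these released over the 48 h, so the comparison does not isolate contact. It called 3049 IDs (58.7%), 1483 higher and 1566 lower in washed (28.6% and 30.2%). Their absolute log2 fold change had a median of 1.10. The groups did not overlap at 340 IDs (6.55%). The larger number of calls than against naive came with 11 libraries in place of 2 in the other arm, and the counts are not a measure of distance. Without the 3 libraries set apart 2831 IDs were called, of which 2611 were among the 3049.

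Both IDs named for the size of their increase over naive were also higher in washed than in medium. ENSG00000120738 had 221 ± 55.7 CPM in medium (SD, n = 11; range 137 to 342), which overlapped the washed range through the libraries set apart, and its log2 fold change was 3.15 (SE 0.405, adjusted p = 4.124e-08). ENSG00000179388 had 238 ± 74.8 CPM in medium (range 176 to 395), below every washed library and different by 2.84 on the log2 scale (SE 0.196, adjusted p = 4.705e-14). Both IDs named for the size of their decrease differed less. ENSG00000204580 had 95.5 ± 57.0 CPM in medium (log2 fold change -0.47, SE 0.204, adjusted p = 0.0445) and ENSG00000141232 had 64.1 ± 24.2 CPM (log2 fold change -0.69, SE 0.253, adjusted p = 0.0187). The highest medium library of ENSG00000204580, hypoxia no SPP1 replicate 1 at 253 CPM, was close to naive replicate 1 at 258 CPM, whereas every medium library of ENSG00000141232 (35.8 to 107 CPM) lay below both naive ones.

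The 4 IDs with the lowest p at a mean log2 CPM of at least 5, 2 per direction and again chosen after their values were seen, were called in all 29 alternatives. ENSG00000099954 had 69.2 to 361 CPM in washed, 7.19 to 48.1 in medium and 21.5 and 63.8 in naive, with log2 fold changes of 3.21 against medium (SE 0.217, adjusted p = 3.356e-14) and 2.12 against naive (SE 0.411, adjusted p = 0.000136). ENSG00000188177 had 154 to 601 CPM in washed, 18.4 to 60.1 in medium and 22.5 and 63.8 in naive, with log2 fold changes of 3.01 against medium (SE 0.207, adjusted p = 4.699e-14) and 2.75 against naive (SE 0.424, adjusted p = 5.045e-06). It was also higher in washed than in unwashed, by 0.76 on the log2 scale (SE 0.177, adjusted p = 0.00846). In both IDs every washed library lay above both naive libraries and above every medium library.

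ENSG00000168273 had 372 to 524 CPM in medium, between its washed and naive levels, and its log2 fold change against medium was -2.34 (SE 0.132, adjusted p = 6.267e-16). ENSG00000110321 was among the abundant IDs, with 1354 to 2486 CPM in washed, 1686 to 2587 in unwashed, 4399 to 7747 in medium and 5854 and 4085 in naive. Its log2 fold change was -1.56 against medium (SE 0.104, adjusted p = 3.34e-14), -1.31 against naive (SE 0.168, adjusted p = 2.58e-07) and 0.00 against unwashed (SE 0.0992, adjusted p = 1.00). Both cell co-cultures were therefore low in this ID, and medium and naive libraries high.

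**Figure D5:**
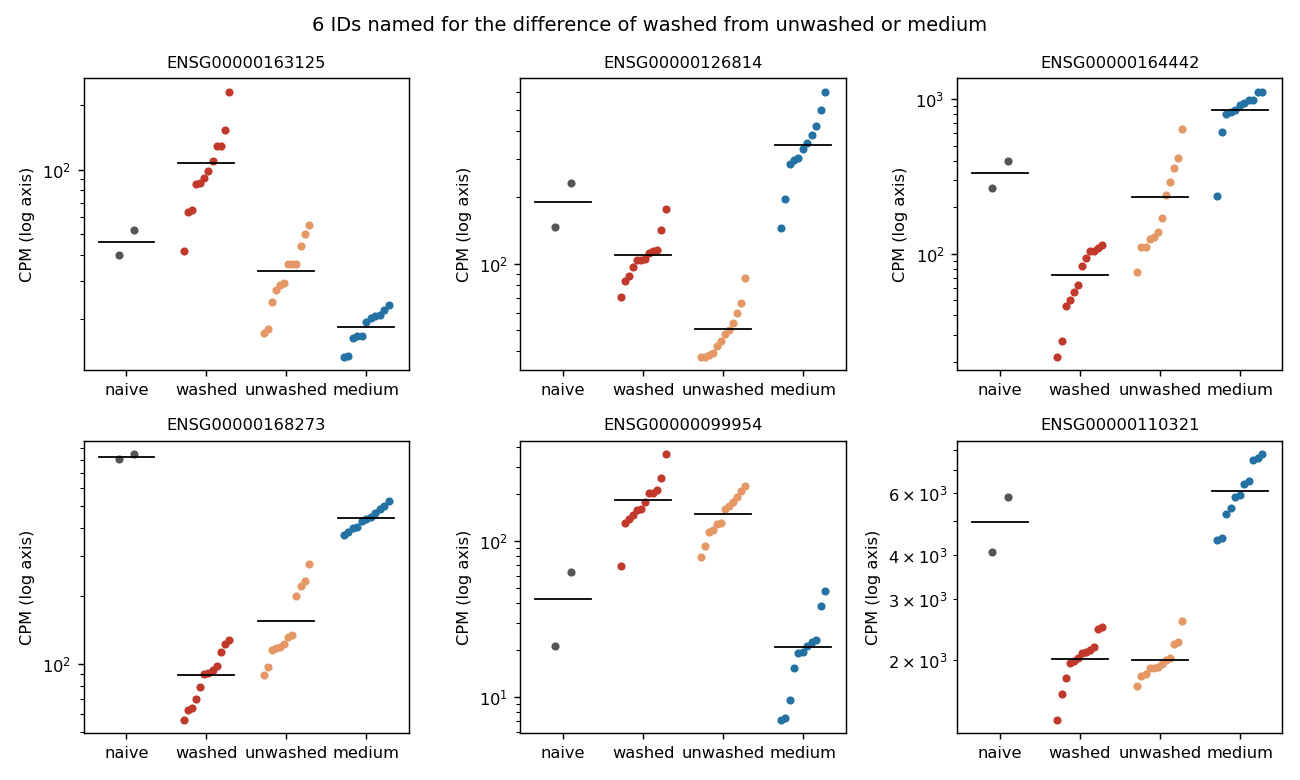
CPM on a log axis of 6 IDs in naive (2 libraries), washed (12), unwashed (12) and medium (11), one point per library in ascending order within each mode and a line at the mean. ENSG00000168273 is lowest in washed (56.7 to 128 CPM) and highest in naive (844 and 806 CPM), and ENSG00000110321 is low in both co-cultures.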

How the data were processed

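Libraries were made with the QuantSeq 3′ mRNA-seq kit, which reads transcript 3′ ends, and a module for unique molecular identifiers. Per the series text, the authors trimmed reads with bbduk, aligned them to the human assembly GRCh38 with STAR 2.7.10b and counted with featureCounts (Rsubread 2.0.3). They deposited raw counts per ID. The annotation release and the use of the identifiers are not given in the sources used here, so counts may include PCR copies.

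Counts were analysed in R 4.3.3 with edgeR 4.0.16. filterByExpr (minimum count 10) kept 5193 of 22657 IDs with a count, holding 97.8% to 99.4% of each library's counts in washed and naive. After TMM scaling, 1 quasi-likelihood model with 13 group means was fitted to all 37 libraries, and contrasts weighted conditions equally (Benjamini-Hochberg; called at an adjusted p under 0.05). CPM used TMM-scaled sizes, and log2 CPM a prior count of 2. Each SE of a log2 fold change is approximate. It was back-calculated as the absolute log2 fold change divided by the square root of the F statistic. Fits without a library kept the same IDs. The pipeline was tested on simulated data. Alternatives were RLE scaling, no filter, DESeq2 1.42.0, the replicate number as a block, a fit of only the groups compared, single conditions, and fits without single libraries or the 3 libraries set apart.

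Named IDs against naive were called, had a mean log2 CPM of at least 5 over the 14 libraries and groups that did not overlap, and were ranked by fold change. The rule asked for more IDs and for gene symbols. As no table pairs the IDs with names, 2 per direction are given, and the other parts of the rule, 30 gene lists, the marker check and sequences were not used here. The libraries were picked by their labels, but the comparison, the named-ID rule and the lists were chosen with earlier results of these data known. Replicates are separate samples per the labels, and the series text says the experiments were replicated independently without tying libraries to mice, so p-values may measure technical spread in part. The level of 3 counts covers counting error only.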

Additional observations from a re-analysis of the deposited data

Results flagged for a closer look

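In arms of 6 washed libraries, 6 arms of the IDs called for hypoxia or SPP1 were examined for a library far from the others, and 2 had one. The criterion was Dixon's 95% critical value, which chance exceeds in about 1 in 20 groups, and the IDs had been selected by their calls. Both times it was washed hypoxia no SPP1 replicate 2, with 319 CPM of ENSG00000275052 among the hypoxia libraries and 671 CPM of ENSG00000210082 among the libraries without SPP1.

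The change from naive differed between washed and medium exposure for the 4 IDs named for the size of that change, by the contrast of washed with medium. The washed libraries also entered the choice of these IDs, so the values are descriptions. The difference was 3.15 (log2) for ENSG00000120738, 2.84 for ENSG00000179388, -0.47 for ENSG00000204580 and -0.69 for ENSG00000141232. The IDs named for the comparison with medium differed likewise, by 3.21 for ENSG00000099954, 3.01 for ENSG00000188177, -2.34 for ENSG00000168273 and -1.56 for ENSG00000110321. Between washed and unwashed the difference was 1.65 for ENSG00000163125, 1.13 for ENSG00000126814, -1.53 for ENSG00000164442 and -0.77 for ENSG00000168273. The last 8 values belong to IDs chosen for these contrasts and are descriptions as well.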

How the results depend on the processing

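None of the named IDs' fold changes reversed under any alternative run. Against naive, the count of 1793 was 1790 with RLE scaling, 1667 without a filter, 1838 with DESeq2, 1739 with the replicate block and 1329 in a fit of only the groups compared. RLE scaling moved the median log2 fold change of all IDs from 0.04 to -0.07 and the share of calls that were higher from 50.6% to 43.8%. Leaving out single libraries gave 689 (without naive replicate 2) to 1840. The cause was not tested. Against unwashed, the count of 376 was 569 with DESeq2, 56 without the 3 libraries set apart and 227 to 737 without single libraries. It was 227 without washed hypoxia no SPP1 replicate 2, 232 without washed hypoxia SPP1 replicate 1, 243, 665 and 232 without unwashed hypoxia no SPP1 replicates 1, 2 and 3, 247 without unwashed hypoxia SPP1 replicate 3, 598 without washed hypoxia SPP1 replicate 3 and, at the highest, 737 without washed normoxia SPP1 replicate 3. Against medium, 2808 to 3082 remained. For hypoxia, 2 calls became 1 with DESeq2 and 0 by edgeR without a filter (892 at an unadjusted p under 0.05), and 0 also with only the groups compared (277) or without the 3 libraries (180), and 0 to 20 without single libraries, with 20 without washed normoxia SPP1 replicate 3 and 4 without washed hypoxia SPP1 replicate 1. Most fits without a library gave 0 (305 to 428 at an unadjusted p under 0.05). For SPP1, 1 call became 43 without a filter, 11 with DESeq2, 0 by edgeR in the groups compared alone (324) and without the 3 libraries (177), and 0 to 154 without single libraries. It was 154 without washed normoxia SPP1 replicate 3, 11 without washed hypoxia SPP1 replicate 2, 9 without washed hypoxia SPP1 replicate 3 and 0 (223 to 639) in 8 fits.

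No pairing by replicate number was apparent. Deviations of same-numbered washed libraries correlated from -0.257 to 0.437 (median -0.0188, 18 pairs). Those of differently numbered washed libraries ran from -0.51 to 0.294 (median 0.0107, 36 pairs), and those of same-numbered naive and washed libraries from -0.0228 to 0.0972 (8 pairs). The deviations were taken from means of 2 or 3 libraries, so these correlations cannot decide whether same-numbered libraries shared a batch. With the replicate block edgeR called 0 IDs for hypoxia (443 at an unadjusted p under 0.05; 1 by DESeq2 without the block) and 0 for SPP1 (515; 11 by DESeq2), and 1684 of the 1793 calls against naive were kept.

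The 2 naive libraries limit every comparison with naive. Depth limits low IDs, since 3 counts equal up to 4.97 CPM, and how far differences between mouse and human 3′ ends lowered the counts was not tested.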
